A study of Gossypium hirsutum with 6 samples.

Results

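In developing cotton fiber, 104 of 11858 oligonucleotide probes with a value at every stage had a late profile that crossed 2-fold between 17 and 21 days post anthesis (dpa). They were chosen on deposited log2 ratios to 5 dpa, in which 1 stands for a 2-fold higher level. The limits were a ratio of at least 1 at both 21 and 24 dpa, a ratio below 0.75 at 17 dpa, and a mean over 8, 10 and 14 dpa between -1 and 1. The 104 members make up 0.877% of the probes, and the stage values that chose them are given here as a description without any test.

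The fibers came from greenhouse plants of the upland cotton line *Gossypium hirsutum* cv. TM1, grown in randomized blocks and not otherwise treated. Fiber RNA from 8, 10, 14, 17, 21 and 24 dpa was compared in a loop of 2-colour arrays, and every stage is expressed against the same 5 dpa fiber. The paper profiled Pima cotton in a separate experiment, and only the TM1 line is described here. As 1 deposited profile stands for each stage, no spread between plants can be computed, and all 6 ratios of a probe share the 5 dpa reference. In such bulk RNA, fewer cells of a type and less RNA per cell cannot be told apart.

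A cotton fiber is one greatly elongated cell of the seed coat. It first extends within a thin primary wall, then slows its growth and lays down a thick secondary wall of almost pure cellulose against the inside of that wall. Cellulose synthase complexes in the plasma membrane make this cellulose from UDP-glucose, which sucrose synthase can release from sucrose, and cotton cellulose synthase genes of the secondary wall are known for their late induction in fiber. Elongation draws on wall-loosening expansins, tubulin for the microtubules and enzymes that lengthen fatty acids for the growing membrane and cuticle.

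Almost none of the members could be tied to a gene. Of 125 probes that the study described by name, 1 was a member, GA_10dpa_fiberEST_06990, and its description reads unknown function. None of the 104 probe names occurred among the 99454 genes of the reference gene table, so members are identified here by probe name, with the shared prefix GA_10dpa_ left out below. Of the members, 49 carried the name of a contig of the CON series, 21 of the Ed_XGI series and 9 of the Ed_contig series, 24 the name of an EST of their own and 1 no second name. These shares lay near those of the array, where CON contigs made up 45.7% of all probes and 47.1% of the members.

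Probes for genes used in growing fiber were well detected. Each of 5 probes described as expansin 1, beta-tubulin, tubulin beta-1, long chain fatty acid elongation enzyme and lipid transfer protein gave a signal above the empty buffer spots in all 12 scanner files. The 4 control features for the leaf chlorophyll a/b binding protein were above the buffer in 8 to 11 files, with ratios between -1.85 and 0.71 over all stages. Their part in any member's profile was not tested.

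The members were a small share of the probes that were high late. A ratio of at least 1 at 21 dpa was found for 706 probes, 5.95% of all, and 471 of them were also at least 1 at 24 dpa, where 1328 probes (11.2%) passed. The limit on the elongation stages left 321 probes. Of these, 172 were already at 1 or more at 17 dpa, 45 lay from 0.75 to below 1 at that stage, and 104 lay below 0.75. Within the 104, 33 lay from 0.5 to below 0.75 at 17 dpa, 41 from 0 to below 0.5 and 30 below 0. The values at 17 dpa thus ran without a gap from the probes high at 17 dpa into the members.

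**Figure D1:**
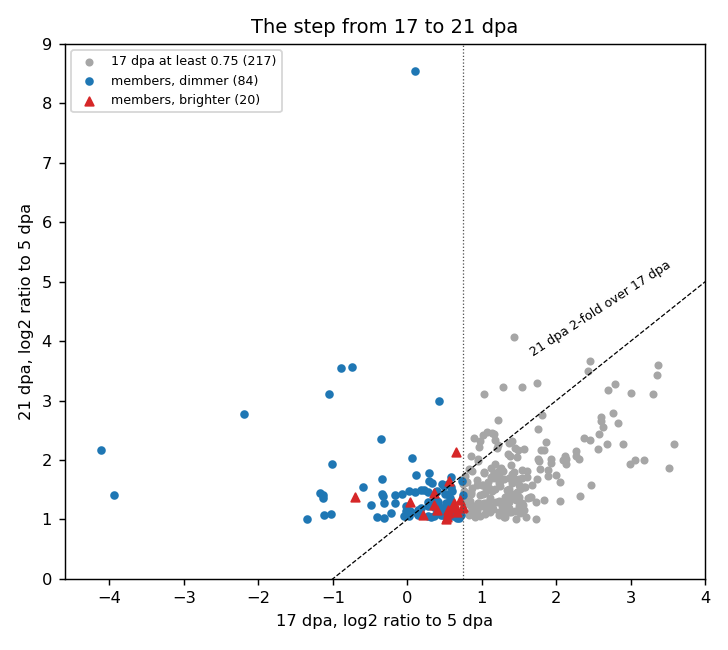
Log2 ratio to 5 dpa at 17 dpa (x axis) against 21 dpa (y axis) for the 321 probes at or above 1 at 21 and 24 dpa with an elongation mean within 1 of 0. Triangles and dark points are the 20 brighter and 84 dimmer members, grey points are the 217 probes at 0.75 or more at 17 dpa (right of the dotted line), and above the dashed line the ratio was at least 1 higher at 21 than at 17 dpa; most triangles lie close to the dotted line and below the dashed one.

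Up to 17 dpa the members stayed near the 5 dpa level as a set and were higher after it, a course that the limits largely set. Over 8, 10, 14 and 17 dpa their median log2 ratios were 0.18, 0.26, 0.37 and 0.32, where the medians of all probes rounded to 0.00. The median was 1.28 at 21 dpa (range 1.00 to 8.54) and 1.56 at 24 dpa (range 1.00 to 8.56). At 21 dpa, 46 of the 104 lay below 1.25 and 10 reached 2. At 24 dpa, 26 reached 2. These counts describe the members only, without a share over all probes beside them.

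The early part of the profile was flat for few of them. The ratios at 8, 10, 14 and 17 dpa all lay within 0.5 of 0 in 20 of the 104 members, whereas 50.4% of all probes did so. At some elongation stage 22 members were at least 2-fold from 5 dpa although the mean of the 3 stages was not. The same count over all probes is not given, only the shares at single stages below, so the 22 cannot be called many or few. All 22 had a mean signal below the median of the array's probes, as had 84 of the 104 members. At 8 dpa, 5 members were at least 2-fold higher than at 5 dpa (3.16% of all probes were) and 4 at least 2-fold lower (2.76%). At 10 dpa the counts were 6 higher (2.82%) and 4 lower (2.05%). At 14 dpa, 12 members were higher (3.78%) and none was lower (4.24%), and at 17 dpa, where the limit allows no high value, 11 were at least 2-fold lower (7.08%). Each of these early counts is small beside the 104, and the mean and ceiling that chose the members shaped them.

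The highest single stage was 24 dpa for 65 members and 21 dpa for 35, a late maximum that the limits favour. The remaining 4 had their highest ratio earlier and were singled out after their values were seen: fiberEST_00717 at 8 dpa (1.64), fiberEST_01294 at 10 dpa (1.66), and fiberEST_02222 and fiberEST_04860 at 14 dpa (1.87 and 2.40). None of these 4 was above the buffer signal in more than 2 of the 12 scanner files. They met every limit, and the name of a late pattern does not describe their course.

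Brightness divided the members. Here brighter probes are those at or above the median signal of all probes, and dimmer ones those below it. The mean log2 signal of a probe over the 12 scanner files, after subtraction of the local background, had a median of 6.26 among the members and 7.86 among all probes. When all probes were ranked from dim to bright and cut into 4 classes of 2964 or 2965 probes, 62, 22, 13 and 7 probes were members, or 2.09%, 0.742%, 0.439% and 0.236%. The SD of the 21 dpa ratio over all probes was 1.07, 0.62, 0.57 and 0.72 in the same 4 classes. The share of members was thus lower in each brighter class, whereas the spread of ratios was widest in the dimmest class and second widest in the brightest.

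The 20 brighter members had close and modest profiles. Their median log2 ratios were 0.28, 0.23, 0.55 and 0.55 at 8, 10, 14 and 17 dpa, 1.22 at 21 dpa and 1.51 at 24 dpa. At 17 dpa, 19 of the 20 were above 0 and 14 were at 0.5 or more. Their difference between 21 and 17 dpa had a median of 0.63 and reached 1, a further doubling, in 5 probes. These probes were already part of the way up at 14 and 17 dpa, so that "switched on at 21 dpa" fits the limits more than the profiles.

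The 84 dimmer members had a sharper step. Their medians were 0.14, 0.29, 0.28 and 0.25 from 8 to 17 dpa, 1.33 at 21 dpa and 1.56 at 24 dpa. The difference between 21 and 17 dpa had a median of 1.11 and reached 1 in 52 of the 84. Only 19 of them were at 0.5 or more at 17 dpa, and 29 were below 0. Brighter and dimmer members met the same limits, and the brighter ones approached them from a higher 17 dpa level.

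**Figure D2:**
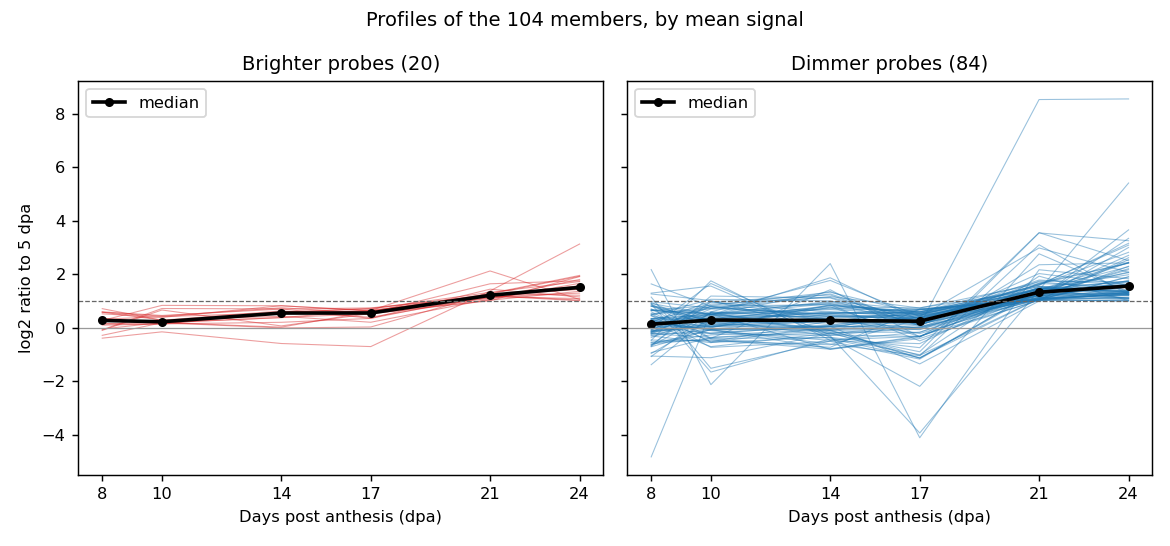
Log2 ratio to 5 dpa (y axis) by stage (x axis, dpa) for each member, with the 20 brighter members on the left and the 84 dimmer ones on the right. Black lines are medians, the dashed line is the 2-fold limit; the brighter members lie in a narrow band with a median of 0.55 at 17 dpa and 1.22 at 21 dpa, while the dimmer ones spread from -4.83 at 8 dpa to 8.56 at 24 dpa.

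The brightest members show the modest form of the pattern. The ratios of fiberEST_01689 were 0.58, 0.44, 0.75 and 0.55 at 8, 10, 14 and 17 dpa, then 1.10 at 21 dpa and 1.58 at 24 dpa. Those of fiberEST_05643 were 0.35, 0.17, 0.54 and 0.56, then 1.65 and 1.76. Those of fiberEST_01676 were 0.52, 0.39, 0.83 and 0.63, then 1.26 and 1.93. In all 3 probes the level before 21 dpa was above that of 5 dpa at every stage, and the highest level was at 24 dpa. Their signals exceeded the buffer in all 12 files.

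The described member, fiberEST_06990, belonged to this bright group. Its ratios were 0.59, 0.29, 0.43 and 0.21 at 8, 10, 14 and 17 dpa, 1.08 at 21 dpa and 1.66 at 24 dpa. Its 21 dpa ratio was 0.87 higher than its 17 dpa ratio, and it too was above the buffer in 12 of 12 files.

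Among the brighter members, a step of at least 2-fold from 17 to 21 dpa was seen in fiberEST_10607, fiberEST_05147, fiberEST_10513, fiberEST_11690 and fiberEST_05643, named because they are only 5. The clearest flat start among them was that of fiberEST_10607, with -0.28, 0.19, -0.01 and 0.03 up to 17 dpa, 1.29 at 21 dpa and 1.96 at 24 dpa. At 17, 21 and 24 dpa fiberEST_11690 had 0.35, 1.45 and 1.15. At the same stages fiberEST_05147 had 0.65, 2.13 and 1.06, so its high level at 21 dpa was not kept at that height.

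The highest ratios belonged to dim probes. For fiberEST_09512 the values were -0.67, 1.19, 1.12 and 0.10 at 8, 10, 14 and 17 dpa, then 8.54 and 8.56 at 21 and 24 dpa, ratios of 372-fold and 378-fold. It was measured in 9 of 12 scanner files, with all its spots flagged in both files of the 21 dpa sample, and exceeded the buffer only in the Cy3 file of the 24 dpa array, with 52.4 against a threshold of 37.4. In the Cy5 file of that array its signal was -0.50. A ratio of this size therefore stood beside a signal near the buffer in 1 dye and at background in the other.

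The next 4 by height at 21 dpa were alike in signal. The probe fiberEST_08534 had 1.30, 1.56, -0.35 and -0.74 up to 17 dpa, then 3.56 and 2.51. The probe fiberEST_00950 had -1.06, -1.12, -0.22 and -0.90, then 3.55 and 3.26. The probe fiberEST_03094 had -0.71, -0.07, -0.60 and -1.05, then 3.10 and 1.24. Of the 10 members at 2 or more at 21 dpa, 8 were above the buffer in 3 files or fewer, as were 42 of all 104. The median over all probes was 11 files. The fifth in height, fiberEST_11866, stood at -4.83, 0.60, 1.77 and 0.42, then 2.99 and 2.08. It was measured in 5 files and was above the buffer in none.

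Between 17 and 21 dpa the ratio was higher at 21 dpa in all 104 members, which the limits fix. It was at least 1 higher in 57 of them and in 401 of all 11858 probes (3.38%), so members were 14.2% of the probes with a doubling between the stages. The limits at 17 and 21 dpa favour such a difference, so the higher share among members is no separate result. The median difference was 1.06, with a range from 0.33 to 8.44, and in 12 members it was below 0.5. In the 4 classes from dim to bright, 46, 6, 2 and 3 members differed by a doubling, and among all probes 11.1%, 1.86%, 0.337% and 0.27% did. A doubling between 17 and 21 dpa was thus most frequent among dim probes in the array as a whole.

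In 3 of the 5 members with the largest differences, the 17 dpa ratio was at or below -2.19. In fiberEST_04860 the ratios were 2.18, -2.13, 2.40 and -4.11 up to 17 dpa and 2.17 and 1.84 after it, a difference of 6.29. In fiberEST_06188 they were -0.96, 0.32, -0.30 and -3.93, then 1.41 and 5.42, a difference of 5.34. In fiberEST_06509 they were 0.60, -0.55, -0.35 and -2.19, then 2.77 and 1.33, a difference of 4.96. The first 2 exceeded the buffer in no scanner file and the third in 3. They were measured in 7, 10 and 9 files, and all spots of fiberEST_06509 were flagged in both 17 dpa files. The other members among the 5 largest differences, fiberEST_09512 and fiberEST_00950, are described above.

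From 21 to 24 dpa most members stayed near their level, as did most probes. The ratio at 24 dpa was within 0.5 of that at 21 dpa in 67 members (67.9% of all probes) and above it in 67 (45.1%), and the median difference was 0.19. It was at least 2-fold higher at 24 dpa in 14 members (7.76% of all probes) and at least 2-fold lower in 4 (5.68%), shares that the limit at 24 dpa affects. The largest gains were those of fiberEST_06188 (1.41 to 5.42), fiberEST_04161 (1.09 to 3.66) and fiberEST_09229 (1.11 to 3.35), and 11 of the 14 gaining probes were above the buffer in 3 files or fewer. The 4 with lower values were fiberEST_03094 (3.10 to 1.24), fiberEST_06509 (2.77 to 1.33), fiberEST_05147 (2.13 to 1.06) and fiberEST_08534 (3.56 to 2.51).

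The relation between the heights at 21 and 24 dpa rested on 1 probe. Over the 104 members, which share the 5 dpa reference and were cut at 1 on both stages, Pearson's r was 0.63 and Spearman's rho 0.20, as a description across probes. Without fiberEST_09512, r was 0.17 over 103 members.

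**Figure D3:**
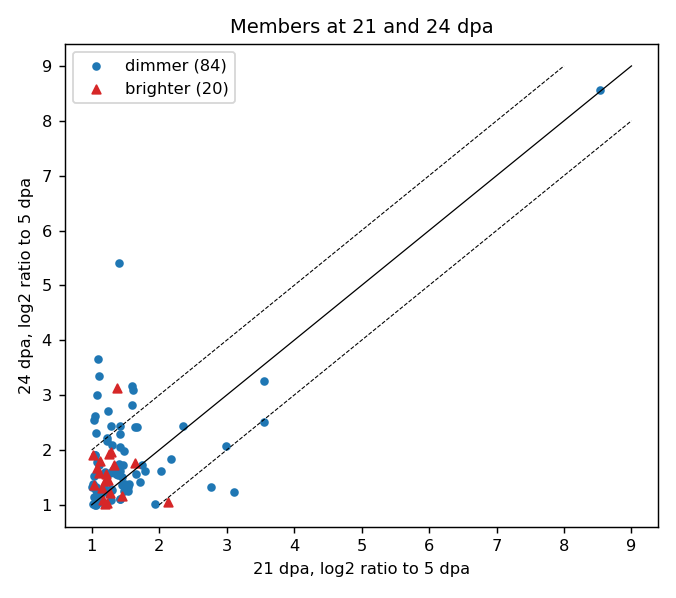
Log2 ratio to 5 dpa at 21 dpa (x axis) against 24 dpa (y axis) for the 104 members, with triangles for the 20 brighter and points for the 84 dimmer probes. The solid line marks equal ratios and the dashed lines a 2-fold difference; 14 members lie above the upper dashed line and 4 below the lower one, and fiberEST_09512 stands alone at 8.54 and 8.56.

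Values on either side of the limits at 17, 21 and 24 dpa differed little, and those at the elongation limits lay further apart. At 21 dpa the lowest members were fiberEST_00886 (1.00) and fiberEST_00737 (1.01), and fiberEST_08844 and fiberEST_02142 were just outside with 0.996 and 0.993. At 24 dpa, fiberEST_00885 (1.00) and fiberEST_03222 (1.00) were inside and fiberEST_03307 (0.99) and fiberEST_08830 (0.96) outside. At 17 dpa, fiberEST_03369 and fiberEST_03577 were inside with 0.749 and 0.745, whereas fiberEST_09241 and fiberEST_04276 were outside with 0.752 each. For the elongation mean, fiberEST_05527 (0.99) and fiberEST_00717 (0.96) were the nearest inside the upper limit, and fiberEST_02521 (1.15) and fiberEST_05149 (1.23) the nearest outside. Near the lower limit, fiberEST_11866 (-0.82) and fiberEST_00950 (-0.80) were inside, and fiberEST_00427 (-1.05) and fiberEST_00277 (-2.79) outside. At the limits on 17, 21 and 24 dpa the values of the set ran on into those of its neighbours without a gap.

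An estimate of the spread of the deposited ratios comes from 17 probe numbers with more than 1 entry in the table. Their entries differed by a median of 0.42 at 17 dpa, 0.40 at 21 dpa and 0.62 at 24 dpa, and the difference between 21 and 17 dpa disagreed by a median of 0.14 and at most 2.74. In 62 of 104 members the 21 dpa ratio exceeded the limit of 1 by less than the median disagreement at that stage. The limits themselves put every member's step from 17 to 21 dpa above the median disagreement, and in 8 members the step exceeded the largest one. All 8 were dimmer members, above the buffer in at most 6 of the 12 files. The entries were not matched to the members in signal, so these steps cannot be called larger than the measurement spread of dim probes. Those 62 members lay closer to the limit than entries of a probe number typically lay to each other.

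One member had such a second entry, and the pattern was absent from it. The entry fiberEST_10513 without a contig name had ratios of -0.39, -0.15, -0.59 and -0.70 up to 17 dpa, then 1.38 and 3.13. The entry of the same number with the contig name Ed_XGI.screen.Contig294 had -0.21, 0.06, -0.16 and -0.25, then -0.17 and -0.26. Both were above the buffer in 12 of 12 files. They differed by 1.55 at 21 dpa and 3.40 at 24 dpa. On the arrays of the 21 and 24 dpa samples the log2 dye ratios of the first entry were 0.18 and 0.20 with normexp background correction. With plain background subtraction they were 0.32 and 0.35. The stages held by the dyes are not settled, so these ratios need not measure the contrast with 5 dpa.

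Signal above the buffer was less frequent for members than for other probes. A probe passed in a file when its background-corrected intensity lay more than 3 scaled median absolute deviations above the median buffer spot, which put the threshold at 37.4 to 275 over the 12 files. Members passed in a median of 5 files and all probes in 11. In every file 21 members passed (20.2%, against 35.4% of all probes), and in no file 17 members (16.3%, against 2.68%). File by file, 34.6% to 66.3% of members and 47.0% to 92.8% of all probes passed. Both ends for all probes came from the 24 dpa array, the lower from Cy3 and the upper from Cy5. In that Cy3 file 45.2% of members passed, close to the share of all probes. Its median signal over all probes (34.4) was below its threshold (37.4), so this file bounds the share that could pass in every file. With the buffer spots' mean plus 3 SD in its place, none of the members and 203 of all probes passed in every file, since that threshold ran from 152 to 5083.

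**Figure D4:**
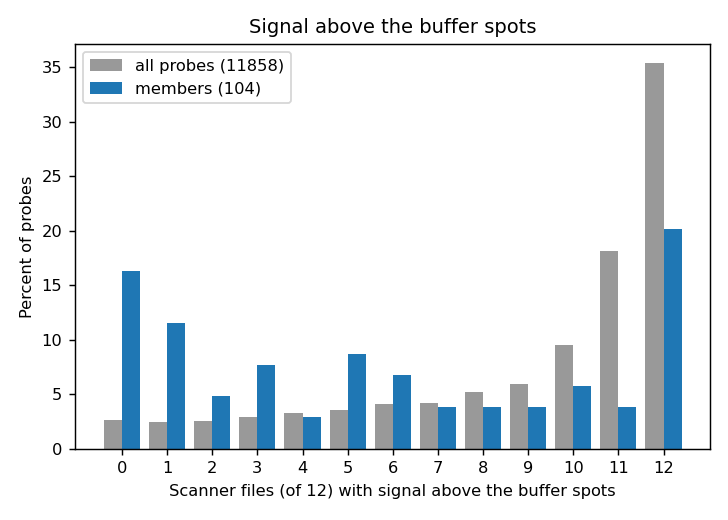
Number of scanner files, of 12, in which a probe's signal exceeded the buffer spots (x axis) against the percent of probes (y axis), with dark bars for the 104 members and grey bars for all 11858 probes. Members take the larger share at the left, with 16.3% in no file against 2.68% of all probes, and 20.2% against 35.4% in all 12.

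The arrays deposited with the late samples gave a second view of the same hybridizations. It is not independent, because the deposited ratios were made from these arrays among others, and which stage each dye held is not settled by the labels, so only sizes and sides are given. After normexp background correction and loess, 99 members had a dye ratio on the array of the 21 dpa sample, and 91 of them lay on one side of 0, as did 51.4% of all probes. At least 2-fold were 15 members, against 4.45% of all probes. On the array of the 24 dpa sample 90 of 102 members lay on one side, and 17 were at least 2-fold, against 6.98%.

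The size of these ratios depended on the background correction. With plain subtraction of the background, 84 of 93 members lay on one side on the 21 dpa array and 70 were at least 2-fold, against 16.6% of all probes, and on the 24 dpa array the counts were 88 of 91 and 71, against 34.4%. The side was thus shared by most members with either correction, while the number of doublings was not. All 20 brighter members lay on the majority side of both arrays with either correction, with median sizes of 0.99 and 0.85 after normexp and 1.34 and 1.42 after subtraction. For fiberEST_09512, the size on the 24 dpa array was 1.04 after normexp and 8.61 after subtraction, the latter from 1 spot.

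**Figure D5:**
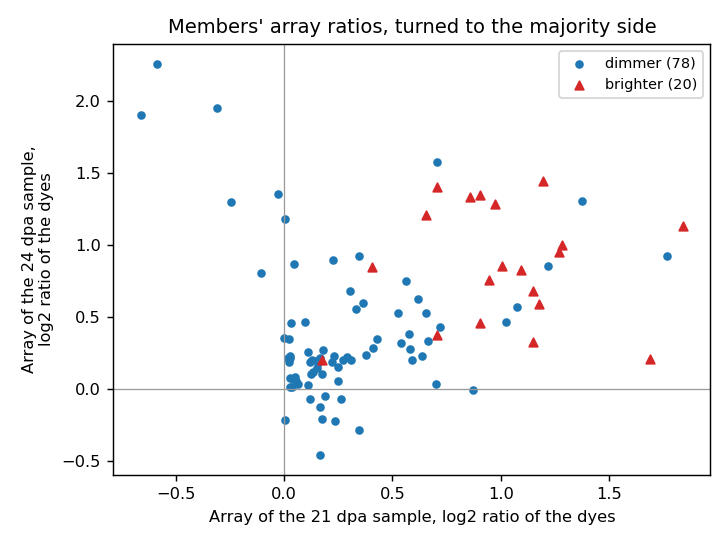
Log2 dye ratio of each member on the array of the 21 dpa sample (x axis) and of the 24 dpa sample (y axis) after normexp correction, each array's sign turned so that most members are positive, for 98 members with both. All 20 brighter members (triangles) lie above 0 on both axes, as do 81 of the 98 in all; the dimmer ones (points) crowd near 0.

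Duplicate spots agreed less well for members when the background was subtracted. On the 21 dpa array the median difference between the spots of a probe was 0.37 for 67 members and 0.20 for all probes after subtraction, and 0.12 and 0.11 after normexp. On the slide itself, members were scattered, with at least 1 in 40 of 48 sub-arrays and at most 6 in any. Members with consecutive probe numbers were fiberEST_00885 with fiberEST_00886 and fiberEST_04160 with fiberEST_04161, each above the buffer in at most 3 files.

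Beside the probes that were high from 17 dpa on, the members differed in brightness, and in the approach to 17 dpa as the limits of both sets favour. The 172 probes at 1 or more at 17, 21 and 24 dpa with the same elongation limit had medians of 0.28, 0.55 and 0.90 at 8, 10 and 14 dpa, then 1.45, 1.70 and 1.89. From 14 to 17 dpa the ratio was higher in 94.2% of them and in 38.5% of the members. The limits of both sets bear on this contrast, so it is no separate result. The 172 had to reach 1 at 17 dpa from an elongation mean below 1, and the members had to stay under the ceiling. Their signal exceeded the buffer in all files in 40.7%, against 35.4% of all probes. The 556 probes high only at 24 dpa had a median log2 signal of 5.85, against 6.26 for the members, and 5.22% of them were above the buffer in all files. By other measures they were not dimmer, since 13.7% of them and 16.3% of the members were above the buffer in no file, and the lower quartile of log2 signal was 5.03 in both. No test of the differences was possible with sets cut from the same values.

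Known secondary wall genes on the array took several courses. The control feature GhCesA-1, named for a cellulose synthase of the secondary wall, met the members' numeric limits under a name that the rule does not take, with 2.98, -2.14, -1.70 and -1.93 up to 17 dpa, then 3.81 and 7.30, and was above the buffer in 3 files. FbL2A, a late fiber gene, had -0.50, 0.63, 1.42 and 1.19, then 4.88 and 7.83, and missed the ceiling at 17 dpa. GhCesA-2 had 0.39, 0.26, 0.35 and 0.54, then 0.36 and 1.71, reaching 2-fold only at 24 dpa, with signal above the buffer in all 12 files. Both CesA features were picked by name after their values were seen. Of 25 other entries on the array with 6 values, A020780_01 was the only further one to meet the limits, with 1.07 at 21 dpa and 2.25 at 24 dpa and signal above the buffer in 2 files.

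None of the wall and sugar probes among the 125 described ones was a member. The probe for a cellulose synthase catalytic subunit, fiberEST_02992, stood at 0.46 at 21 dpa and 0.84 at 24 dpa in its entry without a contig name and at 0.14 and 0.43 in the other. That for a membrane-anchored endo-1,4-beta-glucanase, an enzyme that acts in cellulose synthesis, fiberEST_10639, had 0.28 and 0.88. The sucrose synthase probes were low late, with -1.60 and -1.73 for fiberEST_00620 and -2.45 and -2.49 for fiberEST_10590 in their entries without a contig name. Of the growing-fiber probes, the lipid transfer protein fiberEST_12134 had a comparable difference between 17 and 21 dpa, from 1.14 to 2.45, but had passed 2-fold by 17 dpa.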

How the data were processed

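For each probe and stage the authors deposited 1 log2 ratio against 5 dpa. Per the methods, the authors flagged spots by hand, subtracted the background, left out divergent dye swaps and any spot under the mean of the buffer spots plus 3 SD, normalized by lowess and fitted limma's linear models, which the submitters' processing notes also name. The 12 scanner files, from 7 arrays of 25392 spots each, were deposited by the authors with unnormalized mean intensity and local background intensity per spot and a flag. The methods describe more hybridizations for the line than these arrays, so the scanner files show only a part of the data behind each ratio.

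The profiles were used as deposited. Of 12238 entries named GA_, 380 without values were left out. Signals are means over unflagged spots after background subtraction, and mean log2 signals set values below 1 to 1. Array ratios were made with limma 3.58.1 in R 4.3.3 (normexp, offset 50, loess), and plain subtraction was added after seeing the data. Tables were computed with Python 3.11.15 and pandas 2.3.3, and the rule was tested on simulated profiles. The number of deposited arrays limits the precision of the signals and array ratios, and no p-value was computed because each stage has 1 deposited profile.

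Probes were named by a rule: described members, the 5 highest at 21 dpa, the 5 largest differences from 17 to 21 dpa, the 3 largest gains and 3 largest losses from 21 to 24 dpa, the 3 brightest, those with another entry of the same number, and 2 on each side of each limit. Others are named where a count is 5 or fewer. The members and lists were chosen with earlier results of these data known. Columns without a sample numbered 0.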

Additional observations from a re-analysis of the deposited data

How the results depend on the processing

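The number of members depended most on the fold threshold, the 24 dpa limit and brightness. With a 1.5-fold threshold 494 probes met the rule, with a median 21 dpa ratio of 0.82, a median difference between 21 and 17 dpa of 0.46, 113 doublings from 17 to 21 dpa and 47 from 21 to 24 dpa. With a 3-fold threshold 15 probes met it, with medians of 1.79 and 1.96, and the counts were 15, 3 and, for halvings from 21 to 24 dpa, 1. The median difference was 1.31 with a ceiling of 0.5 at 17 dpa and 0.91 with a ceiling of 1. With each elongation stage held within 2-fold, 8 members doubled from 21 to 24 dpa.

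Among probes above the buffer in every file 21 met the limits, with a median difference of 0.62, and 4 doubled from 17 to 21 dpa, 1 doubled and 0 halved from 21 to 24 dpa. Among brighter probes there were 20, with 0.63, 5, 1 and 1. The count above the buffer in every file was 0 with the mean plus 3 SD and 9 without background subtraction. Of the alternatives chosen after seeing the data, dropping the 24 dpa limit gave 204 members, 101 doublings from 17 to 21 dpa and 45 halvings after it, and plain subtraction gave 70 and 71 members at least 2-fold on the 21 and 24 dpa arrays.

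Centring each stage on its median left 103 members, and averaging entries of a probe number 103. Direction is no check here, since counts have none and the limits favour positive medians. No paired analysis was possible because each stage has 1 profile and the labels give no replicate numbers. Dim signal limits most members, and the cause of the dependence on brightness was not tested.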
